A study of Mus musculus with 3 samples.

Results

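Conventional CD4 T cells of the mouse duodenum were taken as the barcodes with at least 1 Cd4 UMI and at least 1 UMI of Cd3d, Cd3e or Cd3g, and with no UMI of Foxp3, Cd8a, Cd8b1 or Trdc. Foxp3 marks regulatory T cells, Cd8a and Cd8b1 encode the chains of CD8, and Trdc encodes the constant part of the delta T cell receptor chain. A UMI is a molecular tag that counts 1 captured RNA molecule. The rule found 193 cells among the 33284 barcodes that passed a filter of 500 UMIs or more, 200 genes or more and a mitochondrial share of 15% or less. They made up 0.659% of the 29292 barcodes with a CD3 UMI. Because these 8 genes chose the cells, their values are given as a description.

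The cells came from C57B6/J mice, male per the series title, 30 days after the wall of the duodenum was injected with saline or with preformed fibrils (PFF), which are aggregates made from recombinant mouse alpha-synuclein. After digestion in Accumax, part of each sample was sorted for CD45 and part was enriched on CD11b beads, and the fractions were joined before loading (10x 3' v3 chemistry). CD45 marks leukocytes and CD11b marks mainly myeloid cells, so the loaded mix holds no T cell selection and its shares are not those of the tissue. Saline was given in 2 libraries and PFF in 1. By the labels, PFF shares its batch number with saline 1 and not with saline 2, and the batch numbers equal the replicate numbers. The number of mice in a library is not stated. The controls received saline into the same site, and no uninjected or monomer group is used here.

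Conventional CD4 T cells recognise peptides on MHC class II through an alpha-beta T cell receptor and help other cells through cytokines and through CD40 ligand, which they display when activated. In the small intestine most of them are antigen-experienced cells of the lamina propria, which carry the chemokine receptor CCR9 and interleukin-17 or interferon-gamma programmes, while most T cells of the epithelium bear CD8 or a gamma-delta receptor. Naive cells, which recirculate through lymph, and T follicular helper (Tfh) cells, which help B cells, belong mainly to lymphoid tissue such as Peyer's patches.

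Each saline file joined 4 wells, and 3 of these wells, with 1509, 3648 and 8732 barcodes, occurred in both with every count equal. They are called the shared saline wells and were counted once, apart from the well that each saline file had for itself. The own wells of saline 1 and saline 2 held 5631 and 5734 barcodes, of which 9 had the same sequence but none the same counts. The PFF well held 15352 barcodes and had 19 barcode sequences in common with the own well of saline 1 and 119 with that of saline 2. The 193 cells held 1472993 UMIs, at a median of 5765 UMIs per cell. Summed over the cells, the depth was 21639 UMIs in saline 1, 95602 in saline 2, 621777 in the shared wells and 733975 in PFF.

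The number of cells differed strongly between wells that share a treatment. Saline 1 gave 6 cells of 5200 barcodes with a CD3 UMI, or 0.115% (exact binomial 95% interval 0.0424 to 0.251). Saline 2 gave 10 of 3563, or 0.281% (0.135 to 0.516). The shared saline wells gave 97 of 9505, or 1.02% (0.828 to 1.24), and 89 of these 97 cells lay in 1 well. PFF gave 80 of 11024, or 0.726% (0.576 to 0.902). PFF thus lay above both own saline wells and below the largest shared saline well, whose share was 1.13%. The mean over the own saline wells was 0.198% and rose to 0.472% when the shared wells were counted as a saline library of their own. An exact permutation test of the share over the 3 libraries cannot go below p = 0.333, so none was made, and batch and treatment cannot be told apart for saline 2. Intervals here and below cover counting error only.

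**Figure D1:**
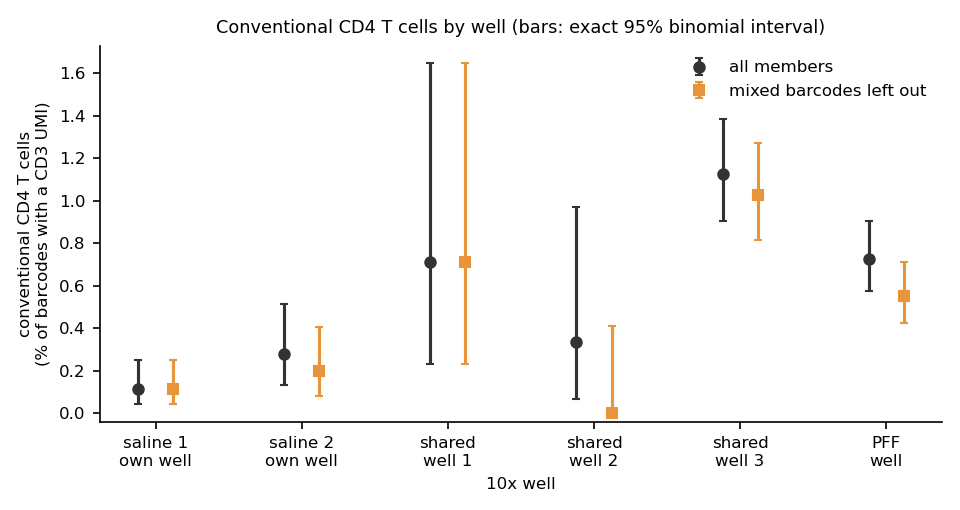
Conventional CD4 T cells as a percentage of barcodes with a CD3 UMI (vertical axis) in each of the 6 wells (horizontal axis). Circles show all cells and squares leave out mixed barcodes, with exact 95% binomial intervals. The own saline wells lie at 0.115% and 0.281%, PFF at 0.726% and the largest shared saline well at 1.13%.

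Some barcodes carried RNA of another cell type beside that of a T cell. Barcodes with at least 3 distinct markers of B cells, macrophages, dendritic cells, epithelium or mast cells, or with over 10% immunoglobulin UMIs, are called mixed here. There were 33 of them, with 0 in saline 1, 3 in saline 2, 11 in the shared wells and 19 in PFF, and 16 of the 33 held macrophage markers. A Cd4 UMI was also found in 19.2% of the 364 barcodes with macrophage markers and no CD3, against 0.332% of B cell barcodes and 0.703% of epithelial barcodes. The summed level of the 8 macrophage markers ran from 0 CPM (UMIs scaled to a library sum of 1000000) in saline 1 to 3075 in saline 2, with 823 in the shared wells and 1341 in PFF. Without mixed barcodes it was 0, 0, 17.3 and 10.7 CPM. The 6 plasma cell markers summed to 0, 115, 77803 and 40473 CPM in the same order, and to 0, 57.7, 722 and 81.5 CPM without mixed barcodes. Of the 6 stromal markers only Pecam1 was detected. No doublet caller was run, and results that rest on mixed barcodes are given with and without them.

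**Figure D2:**
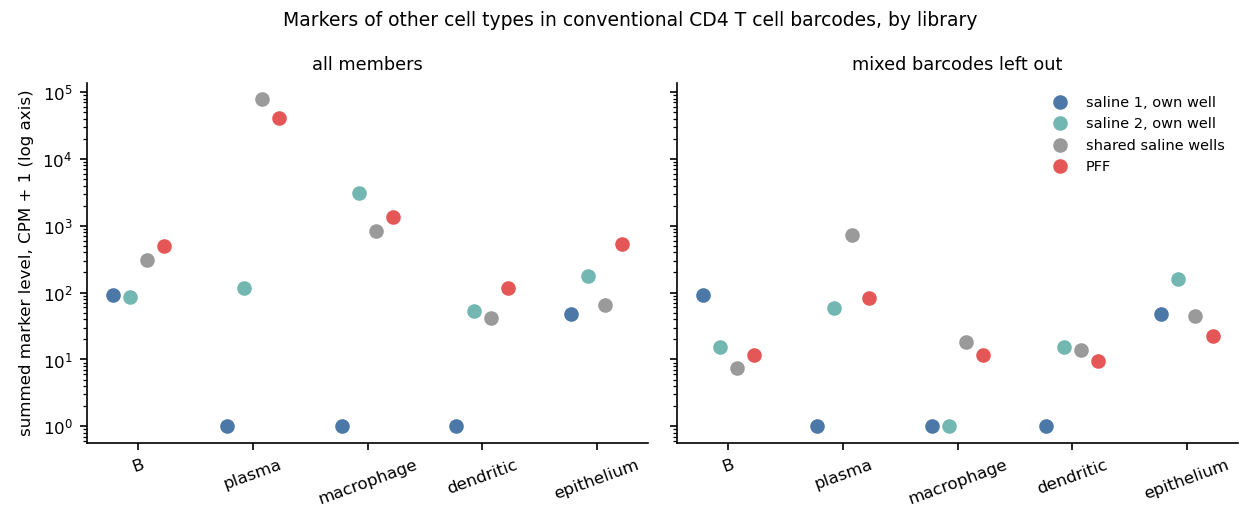
Summed level of the marker lists of 5 other cell types, as CPM plus 1 on a log axis, in the conventional CD4 T cell barcodes of each library. The left panel holds all 193 cells and the right panel the 160 cells left without mixed barcodes. The plasma cell level falls from 77803 to 722 CPM in the shared wells and from 40473 to 81.5 CPM in PFF.

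Of the markers of the label, Cd40lg was not used by the rule. Cd40lg, the CD40 ligand gene, had a UMI in 95 of 193 cells (49.2%) and in 88 of the 160 cells that were not mixed (55.0%). It had a UMI in 15 of 1307 CD8 alpha-beta T cells (1.15%), in 0.342% of barcodes with Trdc and CD3, and in 0.111% of B cell barcodes, at median depths of 5765, 6408, 7295.5 and 6227.5 UMIs. Among the 33 mixed barcodes it was found in 7 (21.2%), and among 12 Foxp3 regulatory T cells in 4 (33.3%). A constant gene of the T cell receptor was detected in 179 of the 193 cells, and Cd3e in 87.0%. Zbtb16, which marks innate-like T cells, had no UMI in any of them.

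The edge of the rule was set by single molecules in many cells. Cd4 rested on 1 UMI in 77 of the 193 cells and the CD3 genes on 1 UMI in 21. Of 518 barcodes with CD3 and Cd4, a Cd8a UMI removed 280, Trdc 117, Cd8b1 92 and Foxp3 22, with some removed by several. There were 125 barcodes that only Cd8a removed, and in 25 of them it had 1 UMI. Cd40lg was detected in 16.0% of the 125 barcodes, between its shares in conventional CD4 and CD8 alpha-beta cells. Only 12 Foxp3 cells met the rest of the rule, with none in saline 1, 1 in saline 2, 5 in the shared wells and 6 in PFF.

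Conventional CD4 T cells were next compared with CD8 alpha-beta T cells of the same libraries, taken as CD3 barcodes with Cd8a and Cd8b1 and without Cd4, Foxp3 or Trdc. There were 76, 56, 937 and 238 of these in saline 1, saline 2, the shared wells and PFF. Genes of the naive, Tfh and activation lists were called higher in the CD4 cells with none lower, and cytotoxic genes were called lower. Counts were summed per library and cell type and tested with edgeR's quasi-likelihood test with library as a block, leaving out the genes of the rules. Of 7509 genes tested, 176 (2.34%) were higher and 181 (2.41%) lower in CD4 cells at an adjusted p under 0.05. The median log2 difference over all genes tested was -0.05. Markers of other cells moved with the comparison: 4 of 4 tested plasma cell markers (median 3.06), 1 of 2 B cell, 1 of 2 macrophage and the 1 tested stromal marker were called higher. Called lower were 2 of 2 dendritic cell markers (median -1.97), the 1 tested mast cell marker (-4.22) and 1 of 4 epithelial markers. Without mixed barcodes the only plasma cell marker tested differed by -0.14 and was not called, no B cell or macrophage marker could be tested, and the stromal marker was still called higher. Without the PFF library 94 genes were called, 38 higher and 56 lower, and the calls it ended are given with the genes.

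Cd40lg stood highest among the named genes. Its level was 323, 241, 187 and 102 CPM in the CD4 cells of saline 1, saline 2, the shared wells and PFF, against 28.6, 0, 0.610 and 5.01 CPM in the CD8 cells. Genes chosen by size, with Cd40lg among them, had to lie on the same side in all 4 libraries, so that agreement is part of the choice. The log2 difference of Cd40lg was 5.81 (SE 0.57, adjusted p = 2.19e-07, edgeR's quasi-likelihood test). Maf encodes a transcription factor of cytokine-producing helper cells. It was at 1155, 439, 725 and 605 CPM in CD4 cells and at 8.18, 19.4, 18.3 and 11.7 CPM in CD8 cells. Its log2 difference was 5.47 (SE 0.31, adjusted p = 1.57e-11, the same test). Maf had a UMI in 73.6% of CD4 cells and 8.49% of CD8 cells. It was also found in 51.2% of epithelial barcodes and in 11 of the 12 Foxp3 cells. Izumo1r, which encodes folate receptor 4 of helper and regulatory cells, was at 92.4, 83.7, 98.1 and 204 CPM against 4.09, 0, 4.12 and 8.76 CPM. Its highest CD4 value was in PFF, and its log2 difference was 4.79 (SE 0.41, adjusted p = 4.06e-08). Izumo1r had a UMI in 29.5% of CD4 cells and in 7 of the 12 Foxp3 cells.

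Some cytokine receptor genes were higher in the CD4 cells as well. Il6ra, the interleukin-6 receptor gene, was higher by 3.27 on the log2 scale (adjusted p = 3.08e-05) and had a UMI in 23.3% of CD4 and 2.45% of CD8 cells. Il18r1, an interleukin-18 receptor gene, was higher by 3.92 (adjusted p = 5.51e-07). Its level was uneven, at 462 CPM in saline 1 against 31.4, 61.1 and 91.3 CPM in saline 2, the shared wells and PFF. Il27ra was higher by 1.03, and Il2rb and Ifngr1 differed by -1.95 and -1.24. Without PFF the calls of Il27ra and Ifngr1 were lost (adjusted p = 0.407 and 0.149). In all, 3 of 15 tested genes of the cytokine receptor list were higher and 2 lower. The genes chosen by size also held Podnl1 at 4.43, Tbc1d4 at 3.47, Tspan32 at 3.07 and Selenop at 2.90. Adgrl3 at 5.36, Itga9 at 5.12 and Dnase1l3 at 3.52 met the same rule, but without mixed barcodes only 2, 1 and 1 cells held a UMI of them.

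**Figure D3:**
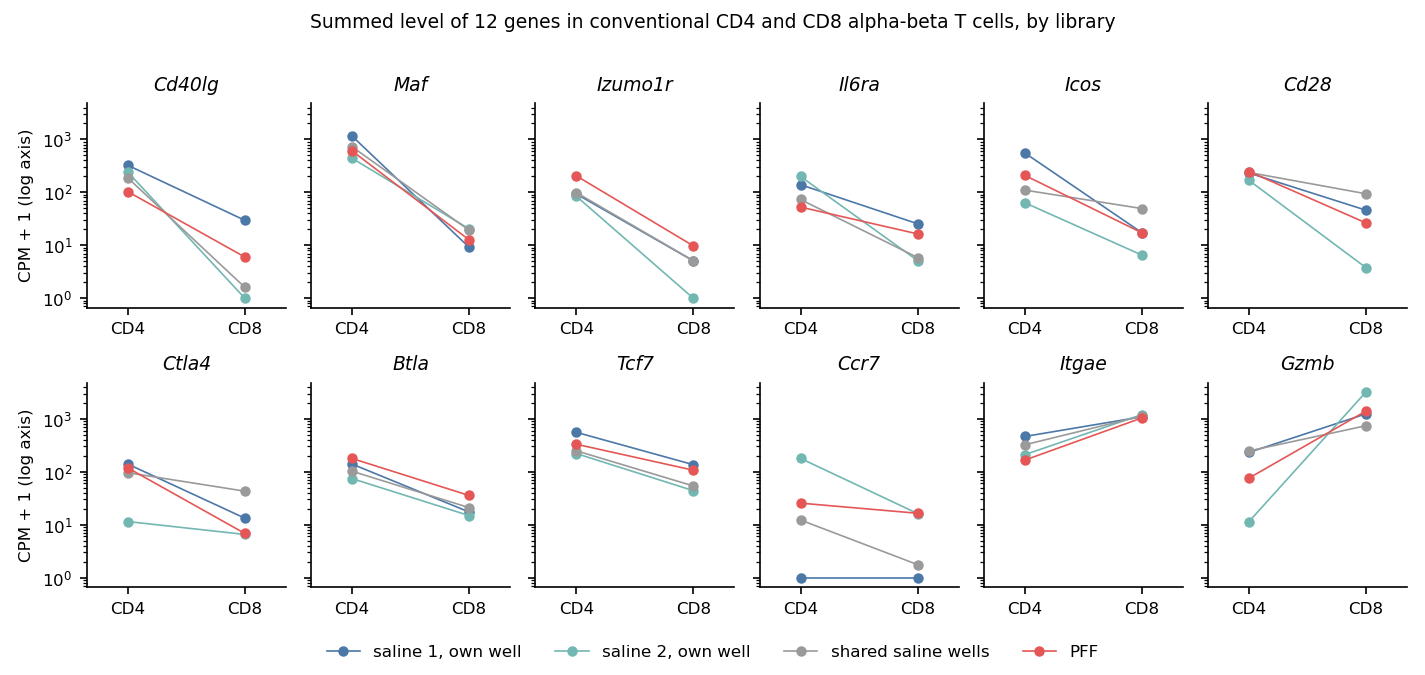
Level of 12 genes as CPM plus 1 (log axis) in conventional CD4 and CD8 alpha-beta T cells, with 1 line per library. Cd40lg falls from 102 to 323 CPM in CD4 cells to at most 28.6 CPM in CD8 cells, while Itgae and Gzmb are higher in the CD8 cells of all 4 libraries.

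Costimulatory and inhibitory receptors of the CD28 family were higher in the CD4 cells. Of 9 tested genes of the activation list, 4 were higher and none lower (median 0.73), and of 9 inhibitory receptor genes 3 were higher and 3 lower (median -0.59). Cd28, the main costimulatory receptor, was at 231, 167, 236 and 247 CPM in saline 1, saline 2, the shared wells and PFF, against 45.0, 2.77, 93.0 and 25.4 CPM in CD8 cells. Its log2 difference was 2.71 (adjusted p = 6.65e-05). Icos, a costimulatory receptor of the same family, was higher by 2.88 (adjusted p = 5.21e-05), with 555 CPM in saline 1 and 62.8 in saline 2. It had a UMI in 43.0% of CD4 cells and in 10 of the 12 Foxp3 cells. Ctla4, the inhibitory member, was higher by 2.53 (adjusted p = 0.00148), and that call was lost without PFF (1.56, adjusted p = 0.469). The 3 genes are neighbours on chromosome 1 of GRCm38 (GENCODE vM21), with Cd28 from 60716800 to 60773359, Ctla4 from 60887000 to 60915832 and Icos from 60977927 to 61000320. Gaps of 113.64 and 62.094 kb separate them. Btla, an inhibitory receptor of lymphocytes, was higher by 2.47 (adjusted p = 1.08e-05), while Lag3, Cd160 and Cd96 differed by -1.59, -2.11 and -1.06. Without PFF the calls of Lag3 and Cd96 were lost (adjusted p = 0.0989 and 0.558).

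The T cell receptor genes themselves did not pass the test: Trac differed by -0.14, Trbc1 by 0.46 and Trbc2 by -0.17. Of 15 tested lineage and receptor genes 5 were higher, among them Cd5, which dampens receptor signals, at 2.19 (adjusted p = 5.21e-05), with Cd2 at 1.30 and Cd6 at 1.07. Without PFF the calls of Cd2 and Cd6 were lost (adjusted p = 0.210 and 0.232), and that of Cd6 also without saline 1 or saline 2 (adjusted p = 0.123 and 0.103).

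The promoters of 4 genes that were called higher in the CD4 cells are shown: Izumo1r, Ctla4, Cd5 and Btla. They come from RefSeq on GRCm38.p6, cover 250 bases before to 50 after the gene start, and are written 5' to 3' on the gene's strand. For Ctla4 that RefSeq start lies 22025 bases inside the GENCODE gene given above, and for the others 22 to 182 bases. Capitals mark GGAAA, the core bound by NFAT factors of T cell activation, or its reverse complement TTTCC. Promoters of Cd40lg, Maf, Cd28 and Icos are not shown. The 4 promoters lie at chr9:14903718-14904017 (minus strand), chr1:60908775-60909074 (plus), chr19:10738925-10739224 (minus) and chr16:45224087-45224386 (plus).
Izumo1r: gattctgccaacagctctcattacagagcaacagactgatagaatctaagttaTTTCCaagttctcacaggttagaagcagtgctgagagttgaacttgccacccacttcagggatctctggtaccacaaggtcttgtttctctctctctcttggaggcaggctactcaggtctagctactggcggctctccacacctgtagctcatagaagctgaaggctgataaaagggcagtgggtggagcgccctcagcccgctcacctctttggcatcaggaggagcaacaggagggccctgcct
Ctla4: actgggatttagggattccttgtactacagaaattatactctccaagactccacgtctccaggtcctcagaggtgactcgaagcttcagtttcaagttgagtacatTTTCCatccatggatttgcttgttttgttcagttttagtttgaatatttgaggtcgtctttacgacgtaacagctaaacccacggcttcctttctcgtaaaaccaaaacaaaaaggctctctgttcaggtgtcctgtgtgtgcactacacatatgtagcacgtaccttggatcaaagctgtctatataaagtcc
Cd5: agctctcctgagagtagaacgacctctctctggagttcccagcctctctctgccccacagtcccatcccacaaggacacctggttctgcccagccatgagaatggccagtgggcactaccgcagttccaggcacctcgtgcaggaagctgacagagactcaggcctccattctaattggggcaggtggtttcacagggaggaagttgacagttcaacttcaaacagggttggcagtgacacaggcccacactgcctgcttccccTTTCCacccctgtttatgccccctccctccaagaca
Btla: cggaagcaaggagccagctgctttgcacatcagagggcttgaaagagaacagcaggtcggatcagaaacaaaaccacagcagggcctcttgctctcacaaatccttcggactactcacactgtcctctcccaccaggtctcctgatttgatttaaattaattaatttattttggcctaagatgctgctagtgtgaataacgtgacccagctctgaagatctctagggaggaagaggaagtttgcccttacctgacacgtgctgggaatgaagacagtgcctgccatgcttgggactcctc
Searched on both strands, GGAAA had 1 match in the windows of Izumo1r, Ctla4 and Cd5 and none in that of Btla. A match was present in 61.3% of 32851 promoters of this length, and 3 of 4 is near that background. TGANTCA, the AP-1 site, had no match in the 4 windows and one or more in 7.81% of all promoters. A match is a description of the letters and not of binding.

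Genes of naive and recirculating cells were higher in the CD4 cells: 7 of 11 tested were called higher and none lower (median 1.85), and 6 of 7 tested without mixed barcodes. Tcf7, a transcription factor of naive and memory cells, was higher by 2.05 (adjusted p = 5.38e-06), at 220 to 555 CPM in the 4 libraries against 43.0 to 135 CPM in CD8 cells. Ccr7, which guides cells into lymph nodes, was higher by 2.39 (adjusted p = 0.0107). It had 0 UMIs in saline 1 and was at 178, 11.3 and 24.5 CPM in saline 2, the shared wells and PFF. Its call was lost without saline 1 (adjusted p = 0.0637). Lef1, Satb1, Bach2, S1pr1 and Klf2 were higher by 1.75, 1.85, 1.72, 2.02 and 2.11. The calls of Klf2 and S1pr1 were lost without saline 2 (1.14 and 1.29, adjusted p = 0.0946 and 0.0523), whose CD4 cells had the highest level of both. They were also lost without saline 1 for Klf2 (adjusted p = 0.116) and without PFF for S1pr1 and Lef1 (adjusted p = 0.109 and 0.0529).

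Tfh genes were higher as well, in 4 of 6 tested and with none lower (median 1.83), and in 4 of 5 without mixed barcodes: Icos, Slamf6 at 2.20, Sh2d1a at 1.80 and Pdcd1 at 1.85. Slamf6 and Sh2d1a encode a receptor and its adapter that steady contact with B cells. Without PFF Sh2d1a lost its call (adjusted p = 0.156). The call of Pdcd1, the PD-1 gene, was lost without saline 1 (adjusted p = 0.172) and without PFF (0.90, adjusted p = 0.999). Of the 12 Tfh genes, 6 were tested. Cxcr5, too low for the test, had a UMI in 14.0% of CD4 and 0.995% of CD8 cells. Tnfsf11, the RANK ligand gene, was found in 20.2% and 0.765%.

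Cytotoxic genes were lower: 9 of 10 tested were called lower and none higher (median -2.77), with the same counts without mixed barcodes. Gzma, a granzyme, was at 693, 1736, 610 and 379 CPM in the CD4 cells against 6030, 22088, 5475 and 9383 CPM in the CD8 cells, a log2 difference of -3.67 (adjusted p = 8.75e-06). Gzmb differed by -3.52, Klrd1 by -3.83, Crtam by -3.91, Nkg7 by -1.90 and Runx3, a transcription factor of CD8 and epithelial T cells, by -1.81. Prf1, at -1.13, did not pass (adjusted p = 0.117). Gzma also had a UMI in 66.4% of B cell barcodes, and the part of free RNA in these values was not tested.

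Retention genes of the epithelium were lower and the gut homing receptor was not. Itgae, the CD103 integrin that binds E-cadherin, was at 462, 209, 322 and 165 CPM against 1088, 1199, 1123 and 1035 CPM, a log2 difference of -2.10 (adjusted p = 2.49e-05). Itga1 differed by -2.93, Gpr55 by -1.56 and Selplg by -0.90, and Itgal was higher by 1.43, so that 1 of 11 tested genes was higher and 4 lower. Without PFF the calls of Gpr55, Selplg and Itgal were lost (adjusted p = 0.352, 0.748 and 0.172), and that of Itgal also without saline 1 (adjusted p = 0.0604). Ccr9, which draws T cells to the small intestine, was at 601, 408, 680 and 319 CPM against 675, 330, 440 and 433 CPM and differed by 0.11 (SE 0.27, adjusted p = 0.995). Of the genes chosen by size, Cdh1, E-cadherin itself, was at 46.2, 0, 1.61 and 12.3 CPM in CD4 cells and at 138 to 150 CPM in CD8 cells, a log2 difference of -4.20. Others were Glp1r at -4.30, Ddc at -4.24, Kit at -4.22, Klrb1a at -4.17, Klra5 at -4.09, Frmd5 at -5.22 and Dnm3 at -5.21, with the gene models Gm44175 and Gm44174 at -5.83 and -5.34. Gm156 had no UMI in the CD4 cells of any library. Of 5 tested genes of unconventional T cells 4 were lower. None of the 3 Th2 genes, 9 interferon response genes, 18 oxidative phosphorylation genes or 10 cold and heat shock genes tested was called. Of 4 tested Th17 genes Maf and Rora were higher, and of 10 Th1 genes Il18r1 was higher and Ccl5 and Cxcr6 were lower. Without PFF the calls of Rora, Ccl5 and Cxcr6 were lost (adjusted p = 0.472, 0.232 and 0.190).

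Helper subsets were described with gates that need a UMI of at least 2 core genes. The 4 core genes include Ccr7, Lef1 and S1pr1 for naive cells, and are Tbx21, Ifng, Cxcr3 and Il12rb2 for Th1 cells; Cxcr5, Bcl6, Il21 and Pdcd1 for Tfh cells; and Gzma, Gzmb, Prf1 and Klrd1 for cytotoxic cells. A gate is a range of counts and not a cell type, and a cell can pass several. At full depth 33 of 193 cells passed the naive gate, 40 the Th1 gate, 27 the Tfh gate and 93 the cytotoxic gate, and 1, 1 and 3 passed the Th2, Th17 and IL-10 gates. The Th1 gate is not particular to helper cells: it held 31.4% of CD8 alpha-beta and 39.8% of gamma-delta cells, at median depths of 6408 and 7275 UMIs. The cytotoxic gate held 83.5% of CD8 alpha-beta cells and 20.5% of B cell barcodes. The naive and Tfh gates are not particular to T cells either, with 32.5% and 23.3% of B cell barcodes. They held 5.81% and 2.52% of CD8 alpha-beta cells. Among the 160 cells that were not mixed, no cell passed both the Tfh and the Th1 gate, and 37 passed none. The naive gate shared 2 cells with the Th1 gate and 2 with the Tfh gate, while 18 of the 33 Th1-gate, 11 of the 27 naive-gate and 5 of the 22 Tfh-gate cells also passed the cytotoxic gate. The genes below are none of the gate's own, cells of a library are not replicates, and no test was made.

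Cells in the Tfh gate more often carried several further genes, some of them from the Tfh list. Of 22 unmixed cells in the gate, against 138 outside it, Tox2 had a UMI in 19 against 22 and Tnfsf8, the CD30 ligand gene, in 19 against 29. Il4, the interleukin-4 gene, had a UMI in 11 of 22 against 5 of 138 cells, at 206 against 9.42 CPM. Pou2af1 was found in 10 against 2 cells and Cxcr4 in 10 against 3, and Ikzf2 (Helios) in 20 against 43. Tissue-homing genes were scarce there: Ccr9 had a UMI in 2 of 22 against 91 of 138 cells and Cxcr6 in 3 against 66. So was Nkg7, of the cytotoxic list, in 1 against 87. The gated cells were deeper, at a median of 6551 against 5446.5 UMIs, so the scarce genes were scarce at the higher depth. Both large libraries showed the pattern: Il4 was in 6 of 13 gated PFF cells and 5 of 8 gated shared-well cells, against 2 of 48 and 3 of 78 outside. At full depth this gate also held 23.3% of B cell barcodes. The 6 B cell markers summed to 2, 1, 3 and 5 UMIs in the unmixed cells of saline 1, saline 2, the shared wells and PFF. The part of B cell RNA in the values of Pou2af1 and Cxcr4 was not tested.

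Cells in the naive gate had genes of quiescent cells and few of tissue residence. Klf2, a transcription factor that maintains S1pr1, had a UMI in 19 of 27 unmixed gated cells against 7 of 133 others. Satb1 was found in 19 against 18, Bach2 in 19 against 39, Tcf7 in 27 against 84 and Igfbp4 in 9 against 0. In the other direction, Cxcr6 was found in 1 of 27 against 68 of 133, Itga1 in 1 against 61, Itgae in 3 against 65, Ccr9 in 6 against 87 and Maf in 12 against 112. In PFF, Klf2 was in 9 of 12 gated cells against 5 of 49 others, and in the shared wells in 6 of 10 against 2 of 76.

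Cells in the Th1 gate had the tissue-homing genes that were scarce in the naive and Tfh gates. Ccr9 had a UMI in 31 of 33 unmixed gated cells against 62 of 127 others, Cxcr6 in 24 against 45, Itga1 in 23 against 39 and Runx3 in 26 against 60. Btla was found in 5 against 50, Bach2 in 7 against 51 and Lef1 in 12 against 71. Il4 was in none of the 33. The median depths were 6646 and 5451 UMIs, and 7357 and 5358 UMIs in and outside the naive gate. Cells in the cytotoxic gate had Nkg7 in 58 of 76 against 30 of 84 and Ctsw in 40 against 23, and Ccl5, a chemokine gene, at 4503 against 1276 CPM.

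**Figure D4:**
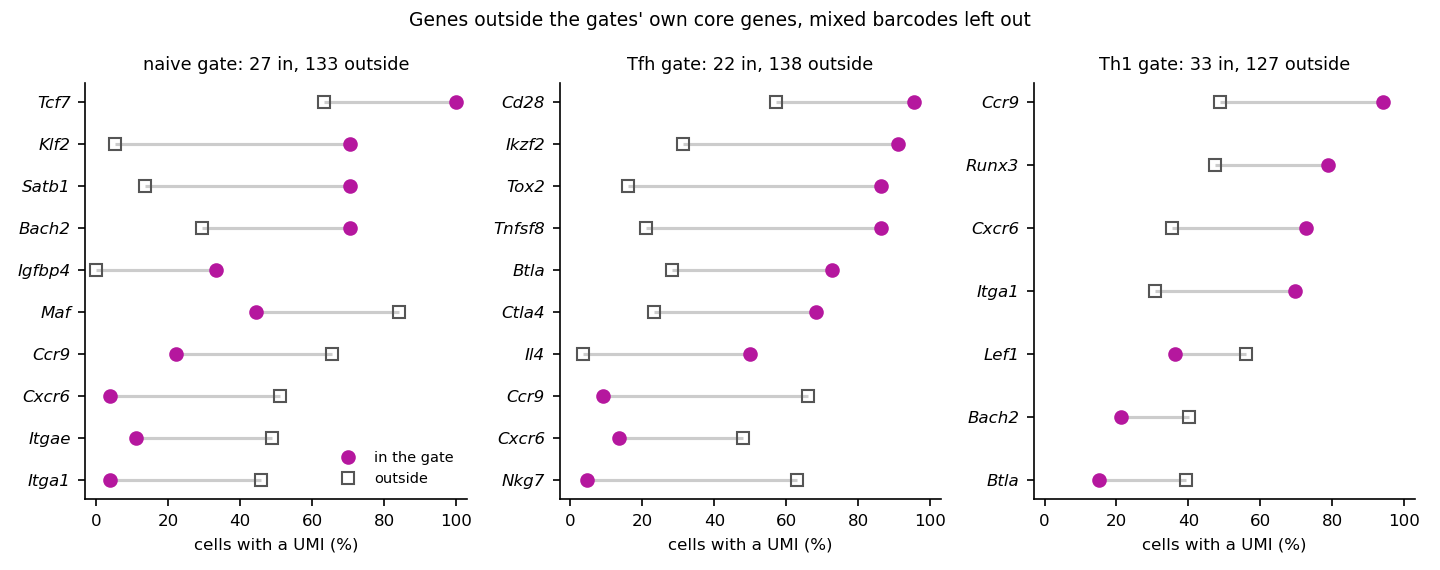
Percentage of unmixed cells with a UMI of each gene, inside (filled circles) and outside (open squares) the naive, Tfh and Th1 gates, all libraries together. Each gate's own core genes are left out. Ccr9 and Cxcr6 are rarer inside the naive and Tfh gates and more common inside the Th1 gate.

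To compare libraries, each cell was thinned to 2000 UMIs, which left 5, 9, 94 and 78 cells in saline 1, saline 2, the shared wells and PFF and left out 7. The naive gate then held 0, 5, 7 and 6 cells. That is 55.6% of the cells in saline 2 (21.2 to 86.3), 7.45% in the shared wells (3.05 to 14.7) and 7.69% in PFF (2.88 to 16.0). Saline 2 stood apart, and the shared wells and PFF were within each other's intervals. The naive gate also held 8.63% of thinned B cell barcodes in the shared wells and 13.6% in PFF. The Tfh gate held 1, 0, 5 and 7 cells. That is 5.32% in the shared wells (1.75 to 11.98) and 8.97% in PFF (3.68 to 17.6), with overlapping intervals. Of thinned B cell barcodes it held 5.11% in the shared wells and 3.85% in PFF. At full depth it held 8.25% of shared-well cells (3.63 to 15.6) and 22.5% of PFF cells (13.9 to 33.2), at median depths of 5151 and 7573.5 UMIs. The Th1 gate held 1, 0, 8 and 0 cells, or 8.51% in the shared wells (3.75 to 16.1) and none of 78 in PFF, where the interval reaches 4.62%. At full depth the Th1 shares were 22.7% and 17.5%.

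After thinning, the cytotoxic gate differed by more percentage points between the larger libraries than the other 3 gates, while at full depth the Tfh gate did. It held 1 of 5, 2 of 9, 22 of 94 and 4 of 78 cells, or 23.4% in the shared wells (15.3 to 33.3) and 5.13% in PFF (1.41 to 12.6). Without mixed barcodes it was 26.5% and 1.67%, and at full depth 55.7% and 43.8%. The same gate held 7.35% of thinned B cell barcodes in the shared wells and 2.49% in PFF. The part of free RNA in the difference was not tested. The gate held 62.4% and 60.9% of CD8 alpha-beta cells. The own saline wells, with 5 and 9 cells, cannot place this difference between treatments.

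**Figure D5:**
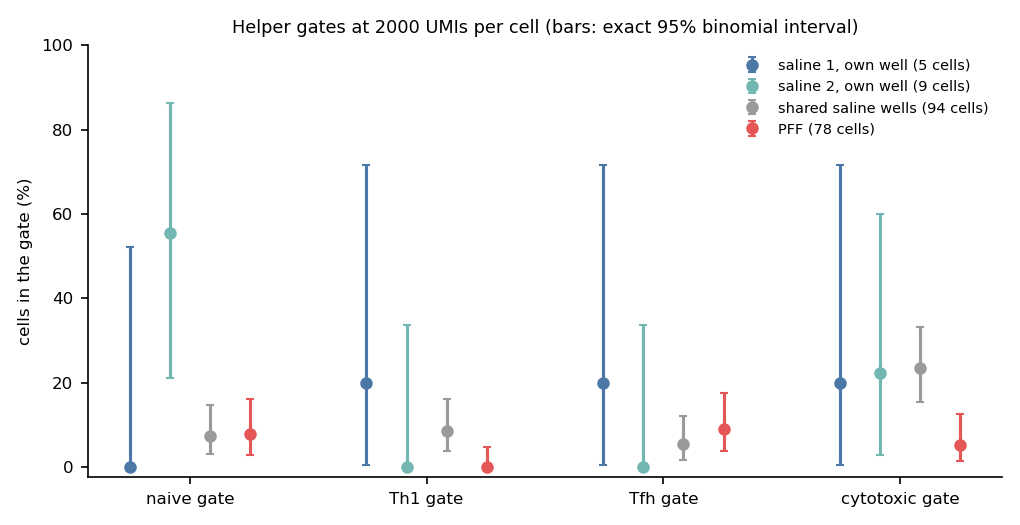
Percentage of conventional CD4 T cells in the naive, Th1, Tfh and cytotoxic gates after thinning to 2000 UMIs, by library, with exact 95% binomial intervals. The cytotoxic gate holds 23.4% in the shared saline wells and 5.13% in PFF, and the intervals of the own saline wells, with 5 and 9 cells, span most of the range.

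Effector cytokines were rare. Il17a, Il17f, Il22, Il13, Csf2, Il3 and Il9 had no UMI in any of the 193 cells, which allows up to 3 UMIs in 1472993. Il4 was found in 18 cells, Il2 in 14, Il21 in 10, Ifng in 7 and Il10 in 3. Il21, the Tfh cytokine, was found in 9 PFF cells and 1 shared-well cell. Ccr6, a chemokine receptor gene of Th17 and B cells, had a UMI in 14 PFF cells and 1 shared-well cell.

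The 14 PFF cells with a Ccr6 UMI, a set chosen after its values were seen, are described here without a test. Among the 12 that were not mixed, against 49 other unmixed PFF cells, Il18r1 had a UMI in 9 against 10, at 550.1 against 54.9 CPM. Il18rap, its partner chain, was found in 7 against 7, Itgae in 8 against 16 and Tmem176a in 4 against 4, and Rora was at 825 against 230.1 CPM. Cxcr5 and Il21 were in none of the 12, against 12 and 7 of 49. The B cell gene Ms4a1 was in none of the 61 cells and Cd79a in 1. The median depths were 6085 and 7496 UMIs. Ccr6 differed by 4.60 (SE 1.54, adjusted p = 1.00) between PFF and saline in edgeR's quasi-likelihood test when the shared wells were added to the saline libraries. It differed by 4.57 (SE 1.33, adjusted p = 1.00, the same test) in that fit without mixed barcodes.

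PFF was compared with saline over the own saline wells and the PFF library. Of 2787 genes tested, 3 (0.108%) were higher in PFF and 0 (0.0%) lower with edgeR's quasi-likelihood test, 32 genes had an unadjusted p under 0.05, and DESeq2 called 3. With at least 2 Cd4 UMIs per cell the split was 1 higher and 2 lower, with Igkc at 8.37 and Dapl1 and Gpnmb at -5.21 and -7.68. The called genes encode immunoglobulin parts of plasma cells. Jchain had 0 CPM in both own saline wells and 3582 in PFF but 7001 in the shared saline wells. Igha was at 0, 10.5, 21151 and 8436 CPM in saline 1, saline 2, the shared wells and PFF, and Igkv12-44 at 595 CPM in PFF alone. A single PFF barcode held 98.02% of the immunoglobulin UMIs of the PFF cells, and 3 barcodes held 98.9% of those in the shared wells. Without mixed barcodes 0 of 1895 genes were called and 20 had an unadjusted p under 0.05.

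With 1 residual degree of freedom, from 6 and 10 saline cells, the comparison had little power. On simulated counts it recovered 2% of 4-fold and 18% of 8-fold changes over 2354 genes, while the CD4 and CD8 comparison recovered 95% and 98% over 7403. No helper list had a called gene. Of 11 tested naive genes 9 were below 0 (median -0.57), and of 7 Th1 genes 5 (median -0.64). The saline side of the naive list includes saline 2, whose batch number differs from that of PFF. After thinning, the naive gate held 55.6% of cells in saline 2 and 0% in saline 1. It held 7.45% in the shared wells and 7.69% in PFF. Of 10 gut homing genes 9 were below 0 (median -0.39), and of 5 cytotoxic genes 4 (median -0.88). Above 0 were 6 of 7 Tfh genes (median 0.41) and 13 of 16 oxidative phosphorylation genes (median 0.48). So were 3 of 4 inhibitory receptor genes (median 0.84) and 3 of 4 interferon response genes (median 0.93). Over all 2787 genes tested 1393 were below 0, with a median of 0.00. Without mixed barcodes 9 of 10 naive genes were below 0 (median -0.57), and 5 of 6 Th1 genes (median -0.61). Also below 0 were 5 of 8 gut homing genes (median -0.37) and 2 of 4 cytotoxic genes (median -0.26). Above 0 were 4 of 5 Tfh genes (median 0.24) and 11 of 13 oxidative phosphorylation genes (median 0.27). So were 3 of 4 inhibitory receptor genes (median 0.58) and 2 of 3 interferon response genes (median 0.56). Over all 1895 genes tested in that setting 963 were below 0. Ccl5 was at 3281, 2573, 3982 and 741 CPM in saline 1, saline 2, the shared wells and PFF. PFF was the lowest of the 4 libraries, and the difference of -1.71 (SE 1.40) did not pass (adjusted p = 1.00). Itga1 was at 323, 0, 326 and 65.4 CPM and Gzmk at 46.2, 10.5, 64.3 and 9.54 CPM. In saline 1, with 21639 UMIs in all, 46.2 CPM is 1 UMI, so low own saline values rest on very few molecules. Cd40lg was at its lowest in PFF (-1.19, SE 0.79, adjusted p = 1.00) and Izumo1r at its highest (1.41, SE 0.89, adjusted p = 1.00). Itgb1, the beta-1 integrin gene, differed by -2.71 (SE 0.84, adjusted p = 0.385), but it was at 743 CPM in saline 2 and at 92.4, 49.9 and 66.8 CPM in saline 1, the shared wells and PFF. Against saline 1 alone, which has the same batch number, its difference was 0.24, and its 92.4 CPM in saline 1 are 2 UMIs.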

How the data were processed

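Single-cell RNA was measured in 2 saline libraries and 1 PFF library. The values, as deposited, are whole UMI counts for 32285 genes in each barcode. Counting used Cell Ranger 7.0.0 per the file headers and the mm10 build per the submitters' processing notes. For the annotation release and the joining of wells, the text is not given in the sources used here. Nothing says which mice a well came from, so the spread between libraries may be technical. With library as a block, p-values for CD4 against CD8 are set against how that difference varies between libraries. For PFF, 1 residual degree of freedom remains, and the spread behind the p-values is estimated largely over all genes together. The summed depth per library was 21639 to 733975 UMIs.

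Counts were summed per library and tested with edgeR 4.0.16 (R 4.3.3, TMM, filterByExpr, quasi-likelihood F test, 2-sided, Benjamini-Hochberg adjusted over all genes tested, threshold 0.05). Fold changes are on the TMM-normalised log2 scale, and CPM values are raw counts over all UMIs of the summed cells. The SE is the absolute log2 fold change divided by the square root of the F statistic. The CD4 and CD8 comparison used 4 libraries with library as a block, and PFF against saline used 3. DESeq2 1.42.0 was an alternative, beside other cell filters and libraries left out. The fits were tested on simulated counts. The members, 18 gene lists, gates and marker lists were chosen with earlier results of these data known. The named genes are the list and core genes, and by size the 12 highest and 12 lowest log2 changes at 20 CPM or more on the same side in all libraries, called genes first for PFF and called genes only for CD8. The setting without mixed barcodes was chosen after seeing the data. Thinning drew 2000 UMIs per cell with numpy 2.4.6 in Python 3.11.15. Exact intervals used scipy 1.17.1. Some genes, also among the core genes of the gates, are not reported here.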

Additional observations from a re-analysis of the deposited data

How the results depend on the processing

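The CD4 and CD8 comparison called 357 genes. It called 816 without a filter on low counts, 230 with at least 2 Cd4 UMIs, 44 without cells that hold 2 or more UMIs of other cell types, a fit without saline 2, and 94 to 423 when 1 library was left out, lowest without PFF. DESeq2 called 400, of which 64.8% were higher against 49.3% in edgeR, and leaving out the shared wells gave 35.8% higher of 344. Without the replicate block, which pairs both cell types of a library, 286 genes were called and 16 of 86 named calls were lost. Of the named calls with a value, 24 of 45 were lost without cells holding other-type UMIs, 29 of 78 without PFF, 14 of 86 without saline 1, 17 of 86 with DESeq2 and 13 of 77 with at least 2 Cd4 UMIs. Without mixed barcodes 68 of 71 kept direction and call, and Xbp1 reversed to -0.14 in both such settings. No paired analysis was possible because saline and PFF share only replicate number 1.

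PFF against saline called 3 genes. It called 8 at no more than 10% mitochondrial UMIs, 0 without mixed barcodes (20 at an unadjusted p under 0.05), 0 with the shared wells as a further library as well (65), 1 with each well as a library and 1920 with both saline files as deposited, where the shared wells count double. With the files as deposited Gm30211 (-0.50), Igha (-1.22), Igkc (-0.70), Iglc2 (-1.50), Jchain (-0.87) and Rap1gap2 (0.13) reversed. Iglc2 also reversed with each well as a library (-0.17) and with the shared wells added (-0.46). Without mixed barcodes and with the shared wells added, Igha (-2.75), Igkc (-2.37), Jchain (-1.97), Itgb1 (0.33) and Rap1gap2 (1.24) reversed. Leaving out 1 saline library gave -3.34 to 0.24 for Itgb1 and -2.79 to 0.35 for Rap1gap2, reversed without saline 2.

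The share among CD3 barcodes became 0.652% in the shared wells and 0.399% in PFF with at least 2 Cd4 UMIs. Without cells that hold other-type UMIs it was 0 in saline 2, 1.24% in the shared wells and 1.82% in PFF, which turned the order of the latter pair. Thinning before the rule gave 0.122% in saline 2 and 0.478% in PFF, and leaving out mixed barcodes 0.553% in PFF. The saline mean was 0.472% with the shared wells added.

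Gate shares followed depth and the number of core genes. Without thinning PFF had 18.8% naive, 17.5% Th1, 22.5% Tfh and 43.8% cytotoxic cells, and the shared wells 12.4%, 22.7%, 8.25% and 55.7%. With 1 core gene PFF had 37.2%, 25.6%, 23.1% and 48.7%, and the shared wells 35.1%, 44.7%, 14.9% and 68.1%. At 1000 UMIs the naive gate held 2.5% in PFF, and Th1 and cytotoxic gates 3.12% and 9.38% in the shared wells. Without other-type UMIs the shared wells had 0 naive and 0 Tfh cells and PFF 0 cytotoxic cells. The causes were not tested.

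The tests of gates and of regulatory cells were not run, since saline 1 and saline 2 held fewer than 15 cells on a side. PFF against saline without other-type UMIs had no value, since saline 2 kept no cell.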
